A study of Arabidopsis thaliana with 12 samples.

Results

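The 10 genes described here encode proteins that act on chromatin with or against the Polycomb group (PcG): the trithorax group genes ATX1, ATX2, SDG8 and ULT1, the H3K27 demethylase genes REF6, ELF6 and JMJ13, and the chromatin remodeler genes BRM, SYD and PKL. They were taken from a fixed list of loci, and all 10 were found among the 27444 protein-coding genes of chromosomes 1 to 5. A region was counted for a gene when it overlapped the gene, its 2 kb upstream or its 1 kb downstream, which is called the window below. ATAC-seq, an assay of open chromatin that relies on Tn5 transposase cutting and tagging exposed DNA, had been run on 12 samples of Arabidopsis thaliana whole seedlings at 10 days after germination, with 2 replicates for each of 6 genotypes in the Col-0 background. The mutants were bmi1abc (atbmi1abc in the labels) and ring1ab, which lack or are depleted of the H2A ubiquitin ligase subunits BMI1 or RING1, clfswn (alleles clf28 and swn7), which lacks H3K27 methyltransferases, emf1 (emf1-2) and lhp1, and the reference was wild type (WT). All plants were grown on the same sucrose-containing agar medium in long days. Mutants and WT were harvested as whole seedlings, so that tissues are pooled in every sample.

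The values analysed are a single merged list of 23226 stretches where Tn5 insertions accumulated, called Tn5 hypersensitive sites (THSs). It gives the chromosome, start and end of each THS and no genotype, replicate or signal. A listed THS was therefore called in at least 1 of the 6 genotypes, and this list does not say in which. The study also tabulated THSs by genotype in its supplement, which was not used here. From the merged list alone, replicate spread and read depth are unknown for every value and no mutant could be set against WT. No test was run. Shares of genes are given with 95% Wilson intervals, which cover counting error only.

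PcG proteins keep genes silent, PRC2 by trimethylating histone H3 at lysine 27 (H3K27me3) and PRC1 by ubiquitinating histone H2A. Trithorax group proteins work in the other direction. They include methyltransferases for lysine 4 and lysine 36 of histone H3, marks of transcribed chromatin, and ATP-driven remodelers of the SWI2/SNF2 type that slide or evict nucleosomes. JmjC demethylases remove H3K27me3 itself. The CHD3-type remodeler PKL is known both for activating genes and for keeping embryonic genes silent after germination, partly through H3K27me3. In plants these proteins set flowering time, floral organ identity and the exit from the embryonic state.

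Sequences of THSs are shown first for the genes whose start site or upstream region was open. All are from the RefSeq assembly TAIR10.1 and run 5′ to 3′ in the direction of the gene. The stretches shown in full leave out annotated UTRs, and the short motif matches further on may lie in one. Capitals mark motif matches. ELF6 and BRM had a THS across the transcription start site (TSS), the outer 5′ end of the gene record, and SYD had one that ended just before it.
ELF6, chr5:1168960-1169152, plus strand: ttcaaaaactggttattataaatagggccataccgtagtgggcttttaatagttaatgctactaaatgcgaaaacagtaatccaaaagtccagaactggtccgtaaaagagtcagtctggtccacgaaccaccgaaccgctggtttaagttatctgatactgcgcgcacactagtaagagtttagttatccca
SYD, chr2:12056059-12056188, plus strand: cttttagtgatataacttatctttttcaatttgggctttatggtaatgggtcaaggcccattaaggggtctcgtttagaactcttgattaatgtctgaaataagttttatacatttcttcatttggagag
BRM, chr2:18922233-18922532, plus strand: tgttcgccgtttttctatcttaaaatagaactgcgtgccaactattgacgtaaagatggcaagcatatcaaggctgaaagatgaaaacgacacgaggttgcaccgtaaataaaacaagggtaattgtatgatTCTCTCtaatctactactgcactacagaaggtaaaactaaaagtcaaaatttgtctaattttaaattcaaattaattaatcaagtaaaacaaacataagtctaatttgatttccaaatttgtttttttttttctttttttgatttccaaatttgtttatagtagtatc
The BRM stretch is the 300 bases just before the TSS of a longer THS, and its capitals mark a GA repeat on the opposite strand. In ATX1, ULT1, JMJ13 and PKL the nearest upstream THS lay further from the TSS, and 3 of these are shown.
ATX1, chr2:13463335-13463548, minus strand: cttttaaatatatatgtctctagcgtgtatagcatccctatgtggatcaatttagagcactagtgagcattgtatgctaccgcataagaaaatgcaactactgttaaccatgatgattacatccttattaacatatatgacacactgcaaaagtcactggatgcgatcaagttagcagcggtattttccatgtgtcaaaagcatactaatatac
ULT1, chr4:13983719-13984018, plus strand: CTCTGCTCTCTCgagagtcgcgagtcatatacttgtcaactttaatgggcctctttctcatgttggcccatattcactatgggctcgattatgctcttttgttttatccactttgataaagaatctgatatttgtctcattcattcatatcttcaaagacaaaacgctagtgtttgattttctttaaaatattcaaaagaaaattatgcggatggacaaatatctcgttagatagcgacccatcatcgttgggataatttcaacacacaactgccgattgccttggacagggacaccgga
JMJ13, chr5:19045452-19045751, plus strand: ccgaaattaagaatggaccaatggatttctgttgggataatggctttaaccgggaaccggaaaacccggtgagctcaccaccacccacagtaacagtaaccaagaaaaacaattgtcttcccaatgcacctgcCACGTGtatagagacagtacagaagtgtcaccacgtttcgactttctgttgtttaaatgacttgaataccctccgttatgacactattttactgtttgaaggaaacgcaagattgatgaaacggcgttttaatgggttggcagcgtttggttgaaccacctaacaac
The ULT1 capitals mark a match to the zinc finger motif of the demethylase REF6 that runs on into a GA repeat, and the JMJ13 capitals mark a G-box. The 300 bases of JMJ13 are the end of the THS that faces the gene.

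THSs inside coding exons are shown next, because they were short and lay away from any annotated start. REF6 had 1 and BRM had 2.
REF6, chr3:17936320-17936505, plus strand: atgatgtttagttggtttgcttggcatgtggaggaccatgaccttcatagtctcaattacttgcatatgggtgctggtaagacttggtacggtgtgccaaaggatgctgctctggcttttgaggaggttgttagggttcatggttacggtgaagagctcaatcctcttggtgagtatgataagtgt
BRM, chr2:18924401-18924459, plus strand: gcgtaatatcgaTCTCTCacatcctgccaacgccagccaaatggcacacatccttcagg
BRM, chr2:18929289-18929374, plus strand: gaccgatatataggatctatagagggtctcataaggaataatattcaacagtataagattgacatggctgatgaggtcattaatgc
The last bases of the REF6 sequence run into the following intron, and the capitals in the BRM sequence mark a GA repeat.

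The THS within PKL enclosed a microRNA gene, MIR862. Its hairpin is shown with both mature arms in capitals, and each mature miRNA is then shown as DNA with its seed, bases 2 to 8, in capitals.
MIR862 hairpin, chr2:10718096-10718198, plus strand: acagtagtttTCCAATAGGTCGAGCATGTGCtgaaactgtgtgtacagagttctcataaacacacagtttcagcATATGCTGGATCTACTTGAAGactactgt
ath-miR862-5p, chr2:10718106-10718126, plus strand: tCCAATAGgtcgagcatgtgc
ath-miR862-3p, chr2:10718170-10718190, plus strand: aTATGCTGgatctacttgaag
The seeds of the arms differ, so they form no shared seed group.

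Of the 10 genes, 9 had at least 1 THS in the window (90.0%, interval 59.6 to 98.2). The exception was SDG8. Among all protein-coding genes 73.8% had one, and among the 8094 that were at least as long as the shortest member (2816 bp) 82.4% had one. A THS over the TSS or up to 1 kb upstream was listed for 7 of 10 members (70.0%, interval 39.7 to 89.2), against 56.0% of the genes of at least that length and 47.6% of all protein-coding genes. With a limit of 500 bp upstream the direction turned, with 3 of 10 members (30.0%, interval 10.8 to 60.3) against 49.2% and 40.7%. A THS over the TSS itself was listed for 2 of 10 (20%, interval 5.67 to 51.0), ELF6 and BRM, against 33.3% and 26.1%. Inside the gene, 6 of 10 had a THS (60%, interval 31.3 to 83.2), against 57.2% and 44.3%. Every one of these background shares lay inside the interval of the members' share.

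The windows of the 10 genes held 20 THSs, or 2.0 per gene, against 1.53 per gene in the protein-coding genes of at least 2816 bp and 1.27 in all. The members are long genes, with a median of 7470 bp against 3701 and 2078 bp. Per kb of window the order turned round, with 0.181 THSs in the members against 0.211 in the genes of at least 2816 bp and 0.237 in all. THSs covered 6918 of 110597 bp of the member windows (6.26%), against 6.49% and 7.1%. Within the genes alone they covered 2002 of 80597 bp (2.48%), against 3.14% and 3.86%. The members thus had more THSs per gene and fewer per kb than either background, and no interval was put on these differences.

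**Figure D1:**
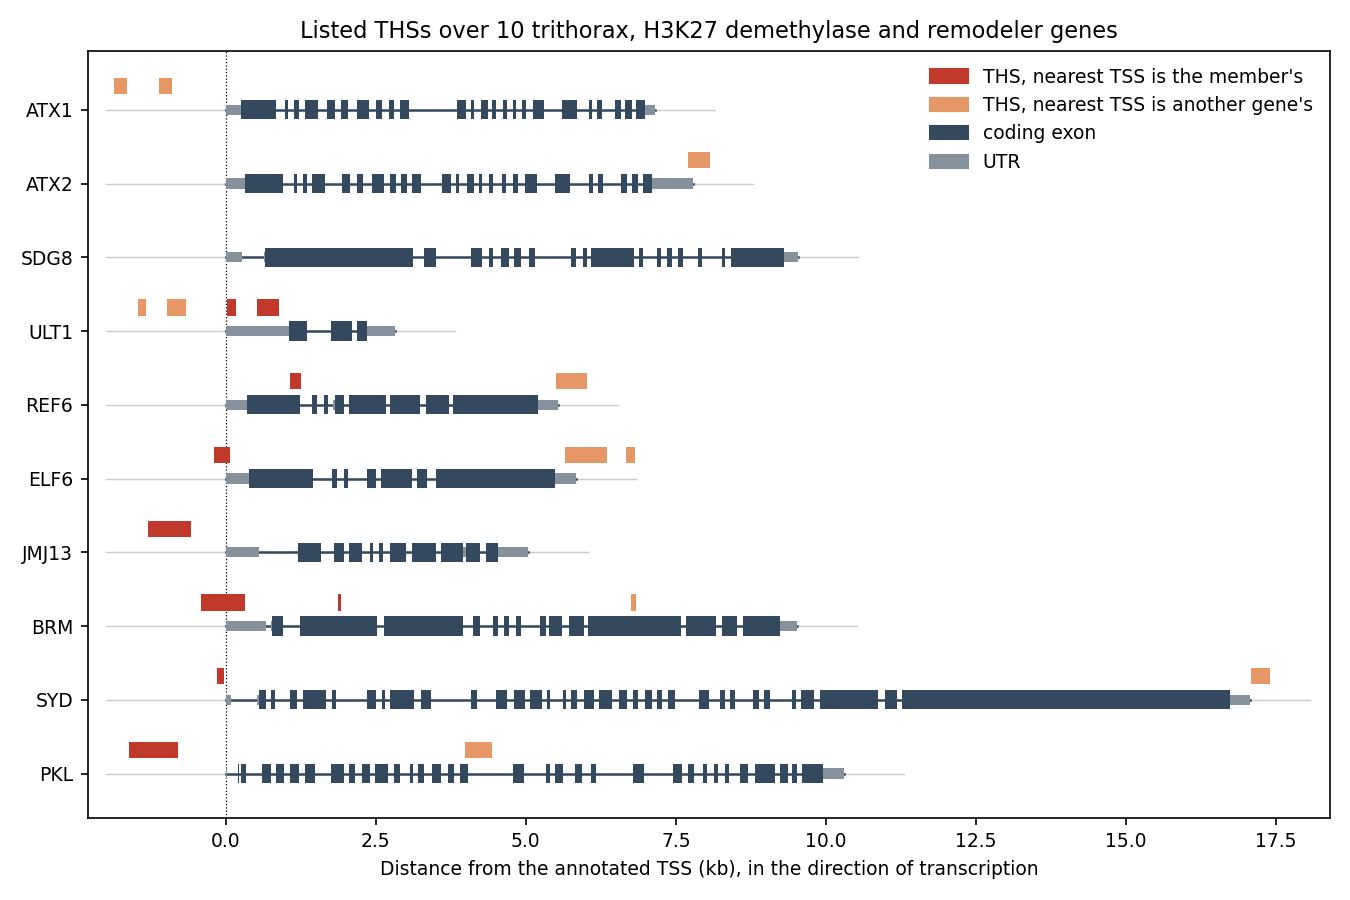
THSs listed in the windows of the 10 genes, with position as distance from the annotated TSS in kb along the direction of transcription, coding exons as tall boxes, UTRs as low boxes and the window as a grey line. Boxes above each gene are THSs, red where the member's TSS is the nearest of any gene (9 THSs) and orange where another gene's is nearer (11 THSs). SDG8 has none, and SYD has none over its 17067 bp.

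The H3K4 methyltransferase genes had THSs only outside the coding part. ATX1 (AT2G31650, chr2:13455272-13462431, minus strand, 7160 bp) encodes a trithorax homologue that trimethylates H3K4 and activates floral homeotic genes. Its THSs, with negative positions upstream of the TSS, spanned -1871 to -1648 (224 bp) and -1117 to -904 (214 bp). The first lay over the TSS of SAD2, an importin gene that runs away from ATX1, and the second was also nearer to SAD2 (746 bp) than to ATX1 (904 bp). The 7160 bp of ATX1 held none. ATX2 (AT1G05830, chr1:1754130-1761909, plus strand, 7780 bp) encodes the closest relative of ATX1. Its only THS, of 357 bp, spanned positions 7711 to 8067, lay over the TSS of the next gene, AT1G05835, and took in 69 bp of the ATX2 3′ UTR. The nearest listed THS upstream of the ATX2 TSS was 7940 bp away. The upstream neighbour SPPL5 ended 93 bp before ATX2 on the same strand. Neither gene therefore had a THS whose nearest TSS was its own. THSs covered 4.31% of the ATX1 window and 3.31% of the ATX2 window, against a median of 5.47% in the protein-coding genes of at least 2816 bp.

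SDG8 (AT1G77300, named EFS in the annotation, chr1:29039922-29049454, minus strand, 9533 bp) encodes the main H3K36 methyltransferase and is known for keeping the flowering repressor FLC active. It was the member with no THS in its window of 12533 bp. The nearest ones lay 6903 bp upstream and 11117 bp downstream of its TSS, the edges of a stretch of 18019 bp. Of the 23221 stretches between neighbouring THSs on a chromosome, 3.2% were longer, and the median was 2857 bp. Each stretch counts once here, whatever its length, and a chosen position falls more often in a long stretch. The 3.2% therefore does not say how rare such a stretch is around a gene. Of the 144 protein-coding genes at least as long as SDG8, 18 had no THS in the window (12.5%). The authors removed reads from regions of excessive coverage before calling THSs, and whether SDG8 touches such a region was not tested.

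ULT1 (AT4G28190, chr4:13984695-13987510, plus strand, 2816 bp) encodes a SAND domain protein that opposes the H3K27 methyltransferase CLF and limits the floral meristem. It was the shortest member and had the most THSs, 4. They spanned -1470 to -1332 (139 bp), -982 to -667 (316 bp), 13 to 171 (159 bp) and 511 to 878 (368 bp). The upstream pair lay over or near the starts of AT4G28180 and AT4G08015, and the other pair lay wholly in the ULT1 5′ UTR. THSs covered 16.9% of the window, more than in 93.7% of the protein-coding genes of at least 2816 bp and 89.4% of all. The count of 4 was higher than in 95% and 96.8% of these genes. No THS crossed the ULT1 TSS, from which the nearest one started 13 bp downstream. The list carries no signal, so how strongly each of these sites was cut is unknown.

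**Figure D2:**
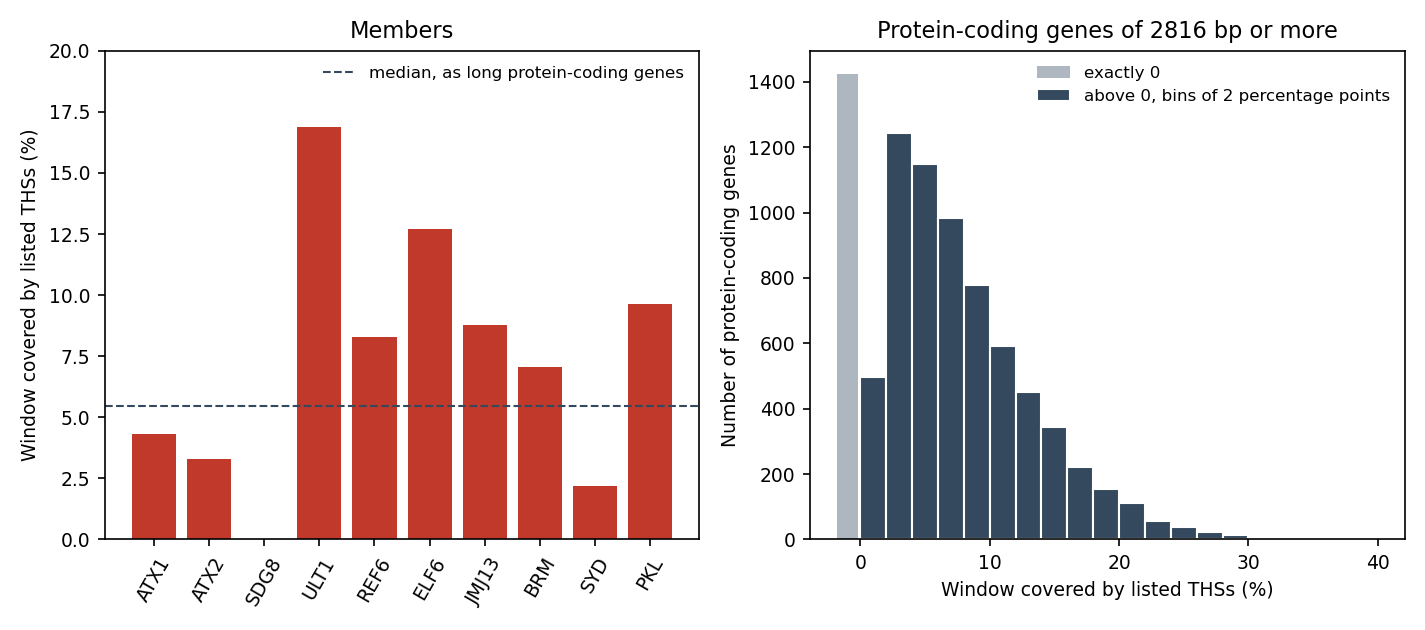
Left, the share of each member's window covered by listed THSs in percent (bars from 0), with the median of protein-coding genes of at least 2816 bp (5.47%) as a dashed line. Right, the number of those genes by covered share, in bins of 2 percentage points, with the 1424 genes at exactly 0 as a separate bar and 3 genes at 40% or more not drawn. ULT1 at 16.9% and ELF6 at 12.7% are the highest members, and SDG8 is at 0.

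The demethylase genes each had a THS, at different places. ELF6 (AT5G04240, chr5:1169153-1174992, plus strand, 5840 bp), whose product removes H3K27me3 and delays flowering, had a THS of 263 bp over its only annotated start, from -193 to 69. A THS of 715 bp followed at the end of the gene (5645 to 6359), and one of 145 bp (6675 to 6819) lay 33 bp from the TSS of the next gene, AT5G04250. They covered 12.7% of the window. REF6 (AT3G48430, chr3:17935256-17940792, plus strand, 5537 bp) encodes a demethylase that finds its targets through zinc fingers. No THS lay at or near its start, and the nearest upstream one was 5581 bp away. Its coding sequence held a THS of 186 bp (1064 to 1249), with 169 bp in a coding exon and 17 bp in the next intron. A THS of 522 bp (5505 to 6026) covered 32 bp of the 3′ UTR and the TSS of the next gene, AT3G48440. JMJ13 (AT5G46910, listed without that name in the annotation, chr5:19046339-19051379, plus strand, 5041 bp) encodes another demethylase of this kind that represses flowering in a temperature-dependent way. Its only THS, of 707 bp, lay upstream at -1294 to -588, and the JMJ13 TSS was the nearest of any gene. REF6 and JMJ13 had 8.29% and 8.79% of their windows covered, so all 3 demethylase genes were above the median of 5.47%.

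Both SWI2/SNF2 remodeler genes had a THS at or just before the start. BRM (AT2G46020, chr2:18922533-18932055, plus strand, 9523 bp), the ATPase of the main SWI/SNF complexes and an antagonist of PcG repression, had a THS of 738 bp from -415 to 322. It covered the BRM TSS and the TSS of AT2G46000, which runs the other way from 353 bp away, and 2 of the 3 annotated BRM mRNA starts. The remaining THSs of BRM lay wholly in coding exons and were short, 59 bp (1868 to 1926) and 86 bp (6756 to 6841). SYD (AT2G28290, chr2:12056213-12073279, plus strand, 17067 bp), a related ATPase with a role in the shoot meristem and flower, had a THS of 130 bp from -154 to -25, which stopped 25 bp short of the TSS. The next one, of 311 bp, lay beyond the gene end (17089 to 17399), and 17113 bp between them held none. This is the longest member, and of the 14 protein-coding genes at least as long, 6 had no THS over the gene (42.9%). THSs covered 7.05% of the BRM window and 2.2% of the SYD window.

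PKL (AT2G25170, chr2:10713807-10724106, plus strand, 10300 bp) had the longest THS of the members, 824 bp from -1622 to -799, with the PKL TSS as the nearest. Its other THS, of 455 bp (3980 to 4434), lay inside the gene, with 56 bp in a coding exon and 399 bp in the following intron. This intronic stretch held the whole hairpin of MIR862 (AT2G25171, chr2:10718096-10718198, 103 bp, on the same strand), whose sequence is given above. The THS began 309 bp before the hairpin and ended 43 bp after it. Of the 45 miRNA genes that lie inside a protein-coding gene on the same strand, MIR862 was the 1 whose hairpin lay inside a single THS (2.22%), and 3 were touched by a THS (6.67%). Among the 255 miRNA genes outside protein-coding genes, 11 lay inside a THS (4.31%) and 30 were touched (11.8%). THSs covered 9.62% of the PKL window.

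The distance of the nearest THS at or upstream of the TSS separated the members into 3 sets. ELF6 and BRM had it over the TSS and SYD at 25 bp. JMJ13, ULT1, PKL and ATX1 had it at 588, 667, 799 and 904 bp. REF6, SDG8 and ATX2 had none within 2 kb, with distances of 5581, 6903 and 7940 bp. A nearest THS beyond 500 bp but within 1 kb was listed for 4 of 10 members (40%, interval 16.8 to 68.7), against 6.86% of the protein-coding genes of at least 2816 bp and 6.93% of all. These distance classes were set after the values were seen, so the figures are a description of 10 genes. In ULT1 and ATX1 the THS concerned was nearer to a divergent neighbour's start than to the member's.

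**Figure D3:**
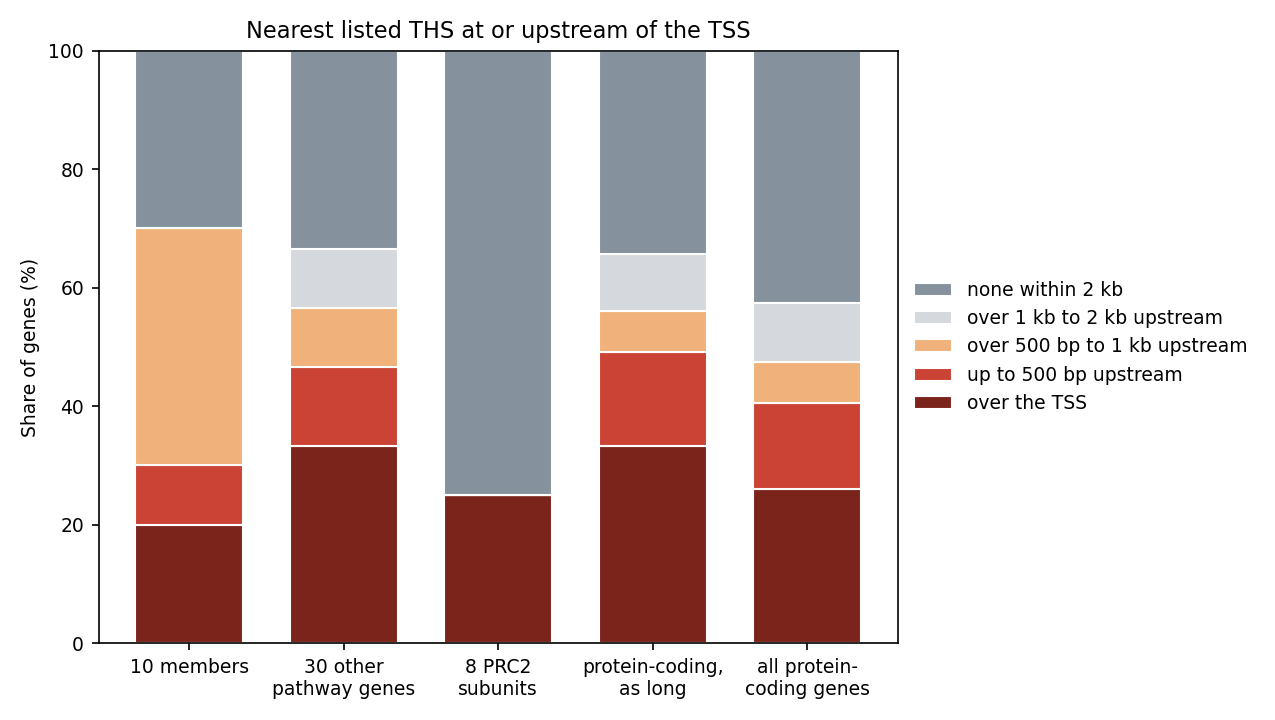
Share of genes in percent by the distance from the TSS to the nearest listed THS over or upstream of it, for the 10 members, 30 other trithorax and remodeler genes, 8 PRC2 subunit genes, protein-coding genes of at least 2816 bp and all protein-coding genes. The class beyond 500 bp and up to 1 kb holds 40% of the members and 6.93% of all protein-coding genes. No THS within 2 kb is listed for 75% of the PRC2 subunit genes (interval 40.9 to 92.9). The share of all protein-coding genes in that class, 42.6%, lies inside this interval.

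By length, the 20 THSs had a median of 287 bp and ran from 59 to 824 bp, against a median of 254 bp and quartiles of 161 and 404 bp in the whole list. Of the 20, 7 were shorter than 200 bp, the fragment extension used by the authors in peak calling, as were 36% of the whole list. By position, 7 lay wholly upstream, 2 crossed a member's TSS, 6 lay wholly inside a gene, 3 crossed the gene end and 2 lay wholly beyond it. Of their bases, 45.7% were upstream, 13.3% in 5′ UTRs, 5.35% in coding exons, 6.01% in introns, 4.28% in 3′ UTRs and 25.4% downstream. Their GC content was 36.7%, against 36.3% over the whole list. Another gene's TSS was the nearest for 11 of the 20 THSs, and the same share over all protein-coding genes is not given here. ATX1, ATX2 and SDG8, the SET domain genes among the members, were the members with no THS nearest to their own TSS. SDG8 had no THS in its window at all. The share of all protein-coding genes without a THS nearest to their own TSS is not given here. By a different measure, 3 of the 10 other SET methyltransferase and COMPASS subunit genes had a THS over the TSS (30.0%), against 26.1% of all protein-coding genes.

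Matches to 4 motifs were counted on either strand. The REF6 motif was searched as CTCTGCTC, CTCTGCTT, CTCTGTTC and CTCTGTTT, the G-box, bound by bHLH and bZIP factors, as CACGTG, the GA repeat, bound by BPC proteins that recruit PcG complexes in Arabidopsis, as GAGAGA, and the telo-box as AAACCCTA. The searched words can overlap each other, as they do in the ULT1 sequence above. REF6 motifs were found in 3 of the 20 THSs, which lay in the ULT1 window and, for the THS of 311 bp, beyond the SYD gene end. The ULT1 matches are shown in capitals with 10 bases on each side.
ULT1, chr4:13983709-13983736, plus strand: ctctctctcaCTCTGCTCtctcgagagt
ULT1, chr4:13985231-13985258, plus strand: cacccaccgcCTCTGTTCctgctcctct
The ULT1 matches lay upstream, in a THS over the TSS of the neighbour AT4G28180, and in the ULT1 5′ UTR. Over the whole list 6.11% of THSs held this motif. Among THSs within 20% of the same length the share was 6.38% and 7.54% for the ULT1 ones and 6.39% for the SYD one. None was in the 2 THSs of REF6 itself.

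The G-box was found once in each of 6 THSs, listed here with 10 bases on each side.
ATX2, chr1:1762144-1762169, plus strand: tacacaaacgCACGTGtatacatgtt
ELF6, chr5:1175088-1175113, plus strand: aattgaggaaCACGTGtattaaaaat
ELF6, chr5:1175849-1175874, plus strand: aagtgggagaCACGTGgacaaataag
JMJ13, chr5:19045575-19045600, plus strand: atgcacctgcCACGTGtatagagaca
BRM, chr2:18922629-18922654, plus strand: ggtaaattcaCACGTGtctcatcgtc
PKL, chr2:10712207-10712232, plus strand: gaacttggacCACGTGtaataacacc
These lay upstream of JMJ13 and PKL, in the 5′ UTR of BRM, and downstream of ATX2 and ELF6. The match downstream of ATX2 was inside the next gene, AT1G05835. Those downstream of ELF6 were in THSs whose nearest TSS was that of AT5G04250. Over the whole list 15.5% of THSs held a G-box. Among THSs within 20% of the same length the share was 30.5% for JMJ13, 34.5% for PKL, 31.4% for BRM, 18.5% for ATX2, and 30.6% and 7.41% for the ELF6 ones. GA repeats were found in 6 of the 20, against 27.3% of the whole list, with 13 matches in all, of which the ULT1 5′ UTR THS held 5 and the REF6 downstream THS held 4. Per kb this was 1.88 matches in the members' THSs, against 2.0 over the list. The telo-box was found in 0 of the 20, against 3.22% of the list. A match says only that the letters are there.

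The other trithorax and remodeler genes were counted from a list of 30. A THS lay in the window of 22 (73.3%, interval 55.6 to 85.8) and over the TSS or up to 1 kb upstream of 17 (56.7%, interval 39.2 to 72.6). The shares of all protein-coding genes, 73.8% and 47.6%, lay inside these intervals. BRM, SYD and PKL all had a THS in the window, as did 8 of 8 other remodeler ATPase genes (100%, interval 67.6% upwards), and 6 of those 8 had one at the TSS or up to 1 kb upstream. PKR1, a close relative of PKL, had 5 THSs, the most of any gene on the lists, and CHR12, a SWI2/SNF2 ATPase, and SWI3A, a SWI/SNF subunit, had 3 each. Of the other SET methyltransferase and COMPASS subunit genes 7 of 10 had a THS in the window, with 1 THS each. ATX4 and ATX5, relatives of ATX1, and ATXR7, an H3K4 methyltransferase, had none. Of the SWI/SNF accessory subunits 6 of 9 had one, and SWI3D, SWP73A and ARP7 had none. Of the demethylase genes, 3 of 3 members had a THS in the window (interval 43.9 to 100), against 0 of 2 for JMJ30 and JMJ32 (interval 0 to 65.8). These intervals overlap. The windows of JMJ30 and JMJ32 were also shorter, 5776 and 5696 bp against 8041 to 8840 bp in the 3 members. ULT2, the relative of ULT1, had 1 THS, over its TSS. Of the PRC2 subunit genes, which encode the opposing complex, 4 of 8 had a THS in the window (50.0%, interval 21.5 to 78.5) and 2 of 8 at the TSS or up to 1 kb upstream (25%, interval 7.15 to 59.1). THSs covered 6.26% of the member windows, against 4.19% in the 30 other genes and 1.69% in the PRC2 subunit genes. The protein-coding genes of at least 2816 bp had 6.49% covered and all protein-coding genes 7.1%. No interval was put on these covered shares. For the shares of genes with a THS, the intervals of the members and of the PRC2 genes overlap.

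**Figure D4:**
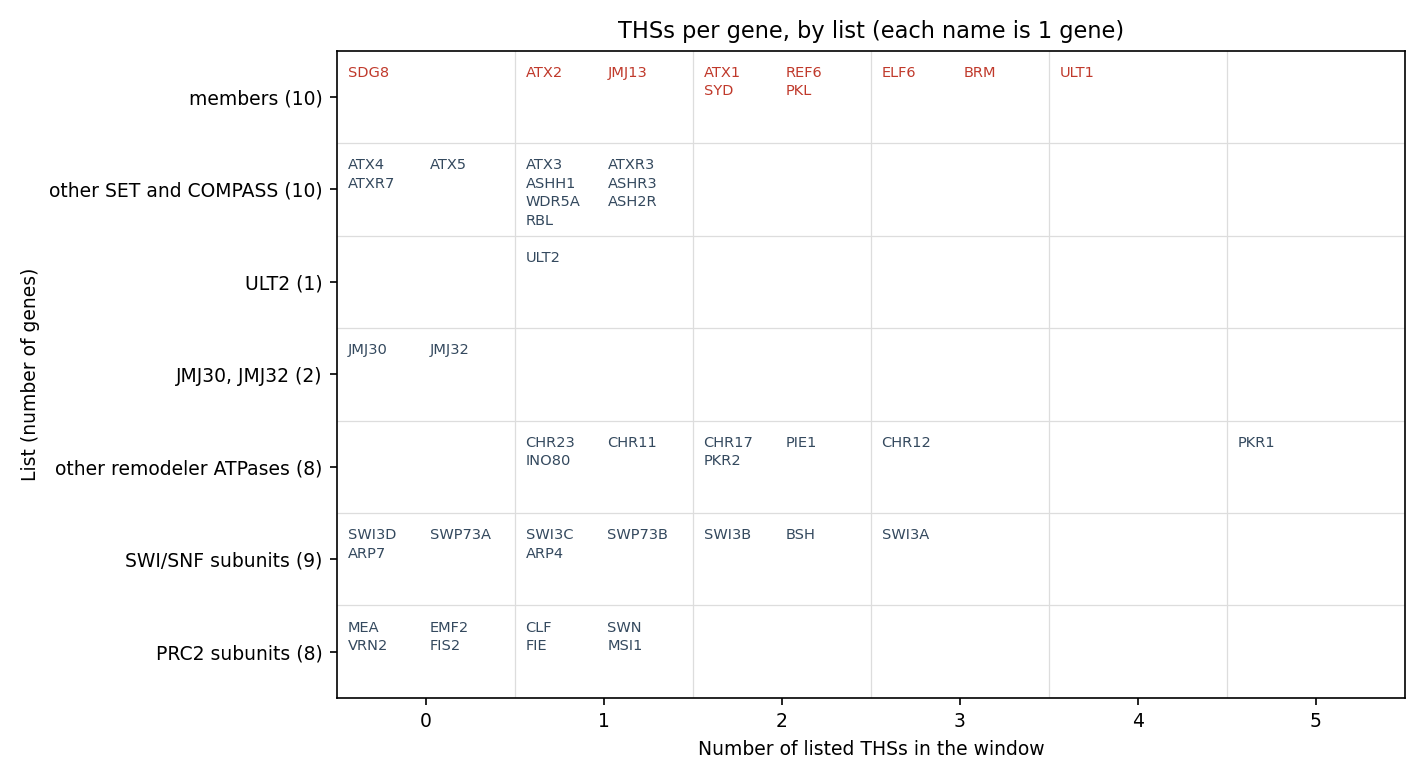
Number of listed THSs in the window of each gene (horizontal), with the genes named and grouped by list (vertical), the 10 members at the top in red. Members have 0 to 4 THSs and PKR1 has 5, while none of the 10 other SET and COMPASS genes and none of the 8 PRC2 subunit genes has more than 1. Of all protein-coding genes, 26.2% have 0 and 37.1% have 1. Windows differ in length between genes and lists, and the counts are not adjusted for it.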

How the data were processed

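ATAC-seq had been performed on 12 samples (6 genotypes, 2 replicates each). The authors used Trimmomatic for trimming and Bowtie for alignment to TAIR10 without organelles, removed duplicates with Picard and high-coverage regions with SAMtools, called peaks per replicate with MACS2 (extension 200 bp, q 0.05), intersected replicates and merged genotypes. The deposited list holds 3 columns, the chromosome and the start and end coordinates in bp. It was taken to be the merge before a filter on low signal, which was not tested. The study reports a shorter consensus list after such a filter. THSs counted here may therefore be absent from that list, and which ones was not tested. A merge keeps what any genotype opened, and intersecting replicates can leave short pieces.

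THSs were placed on the RefSeq annotation of TAIR10.1, whose chromosome lengths hold every THS, with an overlap of 1 bp and coordinates counted from 1. Python 3.11.15 and NumPy 2.4.6 were used, and figures were drawn with Matplotlib 3.10.9. Overlap counting was tested on made-up regions. Members and lists were chosen with earlier results of these data known. All members were named, with, of the 30 other trithorax and remodeler genes, those without a THS and the 3 with the most. ULT2 was named outside this rule, as the relative of ULT1. Alternatives were a minimum length of 200 bp, merging within 150 bp, other windows, midpoints, first mRNA starts, and leaving out THSs nearest to another gene.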

Additional observations from a re-analysis of the deposited data

How the results depend on the processing

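Of 54 alternatives over 9 counts and medians, 47 stayed within 1.5 times of the value given and 7 moved further. Merging THSs less than 150 bp apart left all 9 values unchanged, so its outcomes among the 47 test nothing. The count of 9 members with a THS in the window was too near its maximum to rise by 1.5 times. Within this limit, members with a THS at the TSS or up to 1 kb upstream fell from 7 to 5 with midpoints. Their number also fell to 5 when THSs nearest to another gene's TSS were left out. With THSs of at least 200 bp, the member windows held 13 THSs in place of 20, and 11 in place of 17 other trithorax and remodeler genes had a THS at the TSS or up to 1 kb upstream. With an upstream limit of 500 bp, 3 in place of 7 members had one. With 1 kb upstream and no downstream sequence, THSs in the member windows covered 3768 bp in place of 6918 bp. Leaving out THSs nearest to another gene's TSS left 9 THSs, 3434 bp and 1 THS with a REF6 motif in place of 3, and 7 in place of 9 members with a THS. The cause of each change is the construction of the alternative. No paired analysis was possible because the list has no columns per sample. The list gives no depth, so an unlisted stretch may be closed, thinly covered or removed by the authors' filter on excessive coverage.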

Other observations

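A likeness within the PKL THS was noticed after its sequence had been read. The coding exon at the start of the THS holds 21 bases that match the mature miR862-3p at 19 positions, and they begin 3998 bp from the PKL TSS. With positions counted from the 5′ end of miR862-3p, the differences are T11C and C12T, with the miRNA base first, and the seed (capitals) is identical. MIR862, PKL and this match are all on the plus strand. The exon therefore repeats the sequence of the miRNA and is not its complement.
PKL exon, chr2:10717805-10717825, plus strand: aTATGCTGgacttacttgaag
On chromosomes 1 to 5, both strands, 2 sites are that like miR862-3p, the miRNA itself and this exon. The likeness runs on beyond the mature miRNA. At the same offset of 365 bp, 44 of 47 bases of the exon within the THS (93.6%) equal the hairpin. The 47 bases start at the edge of the THS, and the exon before it was not compared. The best match of miR862-5p in PKL outside the hairpin was 17 of 21 bases, on the minus strand, in an intron and outside the THS. In the genome 19 sites were at least that like miR862-5p, so this match is not particular to PKL.

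Among all 326 annotated miRNA genes, 34 were touched by a THS (10.4%) and 13 lay inside one (3.99%). Of the 71 inside a protein-coding gene on either strand, 4 were touched (5.63%) and 2 lay inside one (2.82%), MIR862 and MIR398b. MIR398b lies on the strand opposite to its host gene.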
